A study of Mus musculus with 8 samples.

Results

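Transcripts that mark T cells, together with the chemokine receptor gene Cxcr3, were followed in forebrain RNA of aged amyloid mice and their littermates. The set holds 10 genes of the 56748 in the deposited table, and each was found by matching its symbol to an Ensembl identifier. They are Cxcr3, the CD3 genes Cd3e, Cd3d and Cd3g, the co-receptor genes Cd4, Cd8a and Cd8b1, the receptor constant genes Trac and Trbc2, and Nkg7, a granule gene of cytotoxic cells. In GENCODE M21 the CD3 genes lie on chromosome 9, Cd4, Cd8a, Cd8b1 and Trbc2 on chromosome 6, Nkg7 on 7, Trac on 14 and Cxcr3 on X. TgCRND8 mice carry a human amyloid precursor protein transgene with the Swedish and Indiana mutations behind a hamster prion promoter, and they deposit amyloid in the brain. The study compared 4 transgenic libraries (Tg) with 4 libraries of non-transgenic littermates (NTg), all from mice aged 18 months and with no further treatment named. RNA came from 1 frozen, pulverised hemisphere per brain, labelled forebrain in the protocol and brain in the tissue field. That each library is a separate animal is implied but not stated, so p-values may measure only the spread between libraries.

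T cells recognise peptides held by MHC molecules through a receptor of an alpha and a beta chain, whose constant parts are encoded by Trac and by Trbc1 or Trbc2. The CD3 chains carry the signal inward, and CD8 or CD4 binds the MHC molecule alongside the receptor. CXCR3 is carried by activated T cells and natural killer (NK) cells and binds the interferon-induced chemokines CXCL9, CXCL10 and CXCL11. T cells are scarce in healthy brain tissue, and their entry into amyloid-bearing brain has been described in mice and people. Not all of these genes are exclusive to T cells: truncated Cd4 and T cell receptor beta transcripts have been described in mouse brain.

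The beta chain has a pair of constant genes so alike that short reads cannot always be assigned to one of them, which limits every value given for Trbc2. Over the 518 coding bases of each gene, 23 positions differ (95.6% identity), and the longest identical run is 259 bases. Of the 618 windows of 75 bases, the read length, in the Trbc2 transcript, 233 (37.7%) also occur in Trbc1. These windows stand for single reads. The libraries were read in pairs, and the share of pairs that fit both genes was not measured. Bases 181 to 420 of the GENCODE M21 transcripts follow, with capitals at the 8 positions where the genes differ.
Trbc1: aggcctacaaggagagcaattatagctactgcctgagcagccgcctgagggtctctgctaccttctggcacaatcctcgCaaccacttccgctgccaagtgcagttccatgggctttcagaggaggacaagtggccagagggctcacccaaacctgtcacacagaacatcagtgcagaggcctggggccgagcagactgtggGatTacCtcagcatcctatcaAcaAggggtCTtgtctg
Trbc2: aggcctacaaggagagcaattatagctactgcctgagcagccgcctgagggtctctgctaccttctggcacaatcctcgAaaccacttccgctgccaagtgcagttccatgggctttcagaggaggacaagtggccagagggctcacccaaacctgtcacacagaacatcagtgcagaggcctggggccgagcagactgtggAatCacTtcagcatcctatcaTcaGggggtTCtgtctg

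Library totals were 57129090 to 65242741 counts, and App, to which transgene reads can map, checked the labels. It lay at 1389 to 1622 CPM (counts scaled to library size with TMM factors) in NTg and at 2531 to 2978 CPM in Tg, with no overlap. A library in which a gene has no count could still hold up to 3 counts, which is 0.0460 to 0.0525 CPM (unscaled) at these depths. Neuronal Snap25 stood at 2168 to 2581 CPM in the 8 libraries. In tissue RNA of this kind, fewer cells of a type and less RNA per cell cannot be told apart.

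No member passed a test of difference between the genotypes. The quasi-likelihood test of edgeR called 0 of the 6 members that passed its count filter (Cd3e, Cd3g, Cd4, Cd8a, Trac and Trbc2), where it called 0.0139% of all genes tested (0.00926% higher and 0.00463% lower in Tg). A fit reaching down to genes with 10 counts over the 8 libraries took in all 10 members and also called 0, against 0.0104% of all genes (0.00692% higher and 0.00346% lower). At an unadjusted p under 0.05 there were 0 members in either fit, against 7.36% and 6.49% of all genes. DESeq2 likewise called 0, where it called 1.55% of genes passing the filter (1.29% higher and 0.259% lower in Tg) and 1.11% in the wider fit (0.944% higher and 0.166% lower). Tg and NTg libraries overlapped for all 10 members, while 4.20% of genes passing the filter (2.62% with Tg above and 1.58% with Tg below) and 3.79% of those in the wider fit did not overlap. The members' intervals were wide, as the plot of fold changes shows, and differences within them were not detectable at this depth and replicate number.

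**Figure D1:**
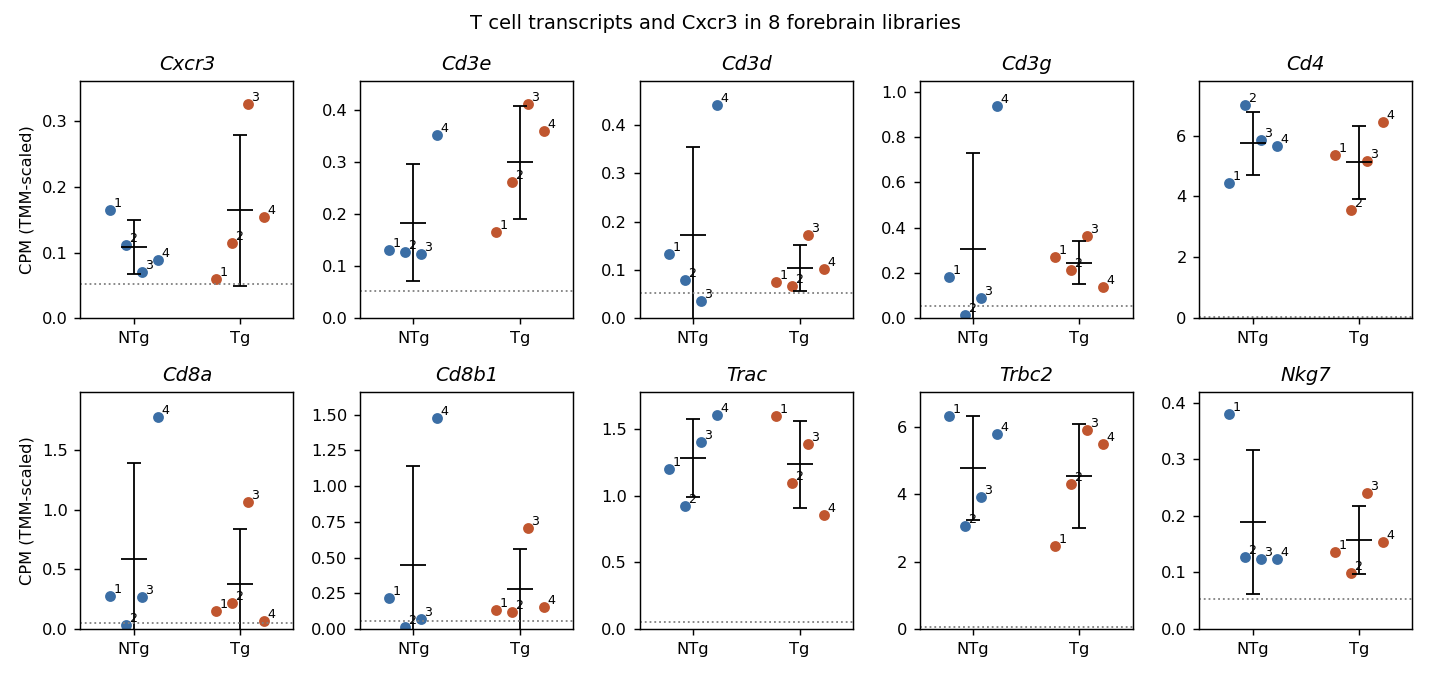
CPM of each gene (vertical axis, linear) in the NTg (blue) and Tg (orange) libraries, with replicate numbers beside the points, the mean and SD (n = 4) in black and the largest 3-count floor as a dotted line. NTg replicate 4 stands above the other NTg libraries in Cd3e, Cd3d, Cd3g, Cd8a and Cd8b1, and Tg replicate 3 above the other Tg libraries in Cxcr3, Cd3e, Cd3d, Cd3g, Cd8a, Cd8b1, Trbc2 and Nkg7.

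Summed over the 10 members, the libraries held 817, 723, 674 and 1034 counts in NTg replicates 1 to 4 and 690, 611, 915 and 814 in Tg replicates 1 to 4. Scaled, that was 13.8 ± 3.08 (NTg) and 12.5 ± 2.77 (Tg) CPM (SD, n = 4). Cd4 and Trbc2 made up 76.8% of all member counts. Together those genes stood at 9.785 to 11.43 CPM in NTg and 7.813 to 11.96 CPM in Tg. The CD3 and CD8 genes summed to 0.270 to 4.99 CPM in NTg and 0.799 to 2.72 CPM in Tg. Within each genotype their sum was highest in the same library as that of all 10 members, NTg replicate 4 and Tg replicate 3. Both groups of genes are described apart from the sum. Of the 80 values of 10 genes in 8 libraries, 4 were at 3 counts or fewer, all of them in NTg replicates 2 and 3.

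Levels of different genes can be compared only per exon length, taken here from GENCODE M21. The length is that of all annotated exons of a gene merged, 4080 bases for Cd3e and 692 for Trbc2. It can exceed the length of any 1 transcript, which lowers the level of such a gene. On that scale, as a mean of the 8 libraries, Trbc2 stood at 6.73 CPM per kilobase, Cd4 at 1.35 and Trac at 1.35. The other 7 members lay between 0.0594 (Cd3e) and 0.244 (Cd8b1) CPM per kilobase. By this measure the receptor constant genes and Cd4 were far more abundant in this tissue than the CD3 chains that a surface T cell receptor needs.

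**Figure D2:**
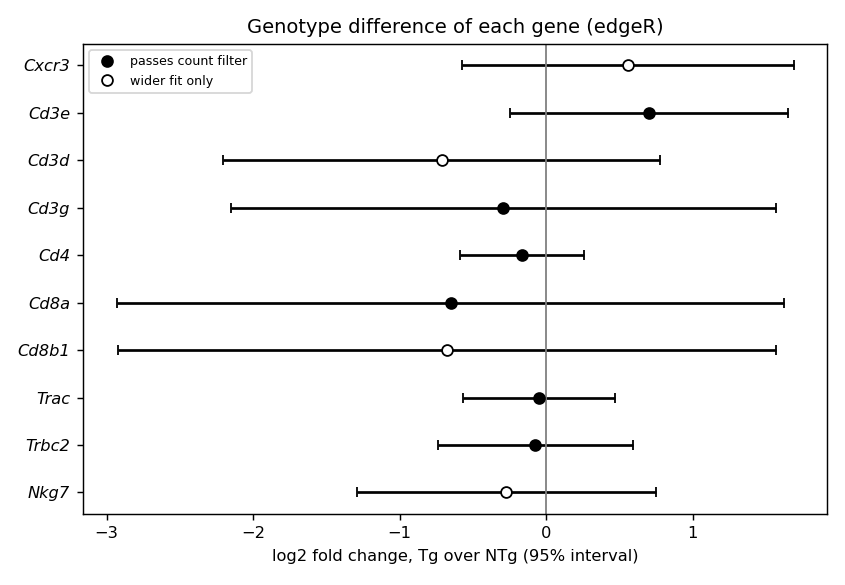
Log2 fold change of Tg over NTg for each gene (horizontal axis) with its 95% interval from edgeR, n = 4 per genotype, filled where the gene passed the count filter and open where only the wider fit took it in. Every interval spans 0, from the narrowest for Cd4 (-0.59 to 0.26) to the widest for Cd8a (-2.93 to 1.63) and Cd8b1 (-2.92 to 1.57).

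Among the CD3 genes, Cd3e encodes the epsilon chain, which is present in every CD3 complex. Its counts were 8, 8, 7 and 20 in NTg replicates 1 to 4 and 11, 16, 24 and 21 in Tg replicates 1 to 4. In CPM it was at 0.184 ± 0.113 in NTg and 0.300 ± 0.109 in Tg (SD, n = 4; edgeR log2 fold change 0.70 with SE 0.42 and adjusted p = 0.824). The 4 Tg libraries lay above NTg replicates 1 to 3, while NTg replicate 4 lay among them. Annotated genes overlap Cd3e on both strands, and the library kit does not mark strand, so a part of these counts could belong to them.

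Cd3g, the gamma chain, had 11, 1, 5 and 53 counts in NTg and 18, 13, 21 and 8 in Tg. The single NTg replicate 4 held 53 of the 70 NTg counts, and its 95% exact binomial interval of 0.687 to 1.20 unscaled CPM did not reach that of any other library. Over all libraries the log2 fold change was -0.29 (SE 0.83, edgeR adjusted p = 0.985, n = 4). Without NTg replicate 4 it turned to 1.36 (adjusted p = 0.539), and limma-voom gave 0.79 on the full set (adjusted p = 0.919). Cd3d, the delta chain, had 8, 5, 2 and 25 counts in NTg and 5, 4, 10 and 6 in Tg, again with NTg replicate 4 highest. Its log2 fold change of -0.71 (SE 0.67, edgeR adjusted p = 0.950, wider fit) became 0.30 without that library.

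The 3 CD3 genes added up to 27, 14, 14 and 98 counts in NTg and 34, 33, 55 and 35 in Tg. Each Tg library exceeded 3 of the 4 NTg libraries, and the remaining NTg library exceeded them all. Mean levels were 0.661 ± 0.718 (NTg) and 0.650 ± 0.200 (Tg) CPM, and the NTg mean was 0.306 CPM without replicate 4.

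Cd3g and Cd3d lie head to head on chromosome 9, with annotated starts 1355 bases apart in GENCODE M21. Both were highest in NTg replicate 4 and in Tg replicate 3 within their genotypes, as were Cd3e, Cd8a and Cd8b1. In NTg replicates 2 and 3, Cd3g had 1 and 5 counts and Cd3d had 5 and 2. The RefSeq promoter windows of Cd3g and Cd3d (build GRCm38.p6, 250 bases before to 50 after the start) are shown because these genes are neighbours. Capitals mark matches, on either strand, to the E-box CAGGTG, the TCF/LEF motif CTTTGA or the GATA motif AGATAA. The Cd3g window is chr9:44980382-44980681 on the minus strand, and the Cd3d window is chr9:44981536-44981835 on the plus strand.
Cd3g: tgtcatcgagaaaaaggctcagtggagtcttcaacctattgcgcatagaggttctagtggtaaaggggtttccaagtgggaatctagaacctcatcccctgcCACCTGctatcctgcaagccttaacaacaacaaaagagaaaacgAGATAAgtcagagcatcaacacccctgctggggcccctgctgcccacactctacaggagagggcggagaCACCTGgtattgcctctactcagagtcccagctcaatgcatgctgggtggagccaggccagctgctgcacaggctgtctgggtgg
Cd3d: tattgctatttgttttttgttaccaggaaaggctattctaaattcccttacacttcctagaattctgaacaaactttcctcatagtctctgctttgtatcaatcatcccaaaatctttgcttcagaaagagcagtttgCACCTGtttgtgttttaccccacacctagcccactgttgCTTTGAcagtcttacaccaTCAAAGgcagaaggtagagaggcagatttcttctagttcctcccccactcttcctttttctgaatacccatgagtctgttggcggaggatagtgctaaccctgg
The E-box occurred 2 times in the Cd3g window and 1 time in those of Cd3d, Cd3e and Cxcr3. Among 27025 promoter windows of the same length, 5413 held it, while 16.2% held the TCF/LEF motif and 11.4% the GATA motif. A 4th motif, the Runx core TGTGGT, was in 16.9% of all windows, 2 times in that of Cxcr3 and 1 time in that of Nkg7. Promoter sequences were matched for 6 of the 10 members, and the window of Cd8a held none of the 4 motifs. The motifs do not overlap one another, apart from an E-box and a Runx core that adjoin in the Cxcr3 window.

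The CD8 co-receptor genes were high in 1 library of each genotype. Cd8a, the alpha chain, had 17, 2, 15 and 101 counts in NTg and 10, 13, 62 and 4 in Tg. NTg replicate 4 (1.42 to 2.12 unscaled CPM, 95% exact binomial interval) and Tg replicate 3 (0.817 to 1.37) stood clear of the other 6 libraries, whose intervals reached at most 0.450. Means were 0.590 ± 0.802 (NTg) and 0.375 ± 0.465 (Tg) CPM (SD, n = 4; edgeR log2 fold change -0.65 with SE 1.02 and adjusted p = 0.960). Without NTg replicate 4 the log2 fold change was 0.95 (adjusted p = 0.835). Without Tg replicate 3 it was -2.0 (adjusted p = 0.707), without both libraries -0.39 (adjusted p = 0.906), and with limma-voom on all 8 it was -0.21 (adjusted p = 0.991).

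Cd8b1, the beta chain, which conventional CD8 T cells pair with the alpha chain, was high in the same libraries. It had 13, 1, 4 and 84 counts in NTg and 9, 7, 41 and 9 in Tg. NTg replicate 4 and Tg replicate 3 held most of its 168 counts. The log2 fold change was -0.68 (SE 1.01, edgeR adjusted p = 0.977, wider fit) and 1.44 without NTg replicate 4 (adjusted p = 0.742). With both outlying libraries left out it was 0.42 (adjusted p = 0.916), and limma-voom gave 0.45 on all 8. The mean of the 2 CD8 genes summed was 1.04 (NTg) and 0.652 (Tg) CPM, or 0.293 CPM and 0.279 CPM without NTg replicate 4 and Tg replicate 3.

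Variable segments of the beta chain, which are joined to the constant part in rearranged receptors, were highest in the same libraries. The 22 annotated Trbv genes summed to 12, 3, 5 and 77 counts in NTg and 11, 16, 46 and 8 in Tg. NTg replicate 4 and Tg replicate 3 were again highest in their genotypes. This sum was examined after the counts of the members had been seen.

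**Figure D3:**
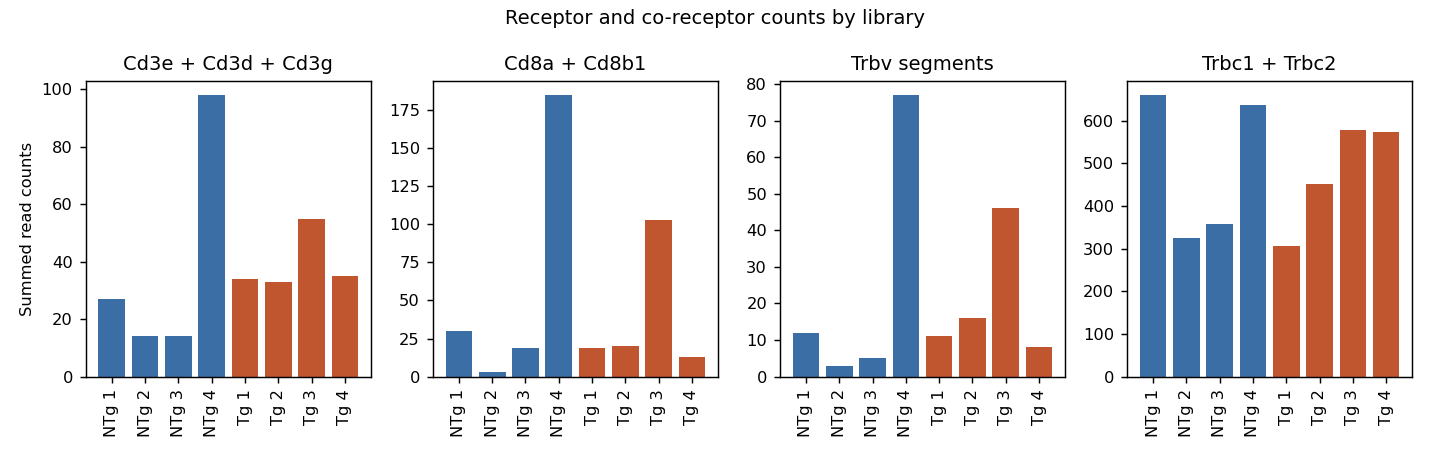
Summed read counts (vertical axes, linear from 0) of the CD3 genes, the CD8 genes, the Trbv segments and the beta-chain constant genes in each NTg (blue) and Tg (orange) library. NTg replicate 4 has 98, 185 and 77 counts in the first 3 panels and Tg replicate 3 has 55, 103 and 46, while the constant genes have 306 to 660 counts in every library.

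The constant genes varied less between libraries, relative to their means, than the CD8 genes. Trbc2 had 384, 192, 221 and 328 counts in NTg and 163, 262, 343 and 321 in Tg, and its highest library was NTg replicate 1. Its level was 4.77 ± 1.55 (NTg) and 4.54 ± 1.54 (Tg) CPM (SD, n = 4; edgeR log2 fold change -0.07 with SE 0.30 and adjusted p = 0.987). Trbc1 had 276, 134, 137 and 308 counts in NTg and 143, 189, 235 and 252 in Tg, with NTg replicates 4 and 1 highest. Trbv counts came to between 0.920% (NTg replicate 2) and 12.1% (NTg replicate 4) of the summed Trbc1 and Trbc2 counts, and to 7.96% in Tg replicate 3. In the other libraries that share was 1.40% to 3.59%. Joining segments of the beta locus summed to 292 counts over the 8 libraries, more than the 178 of the Trbv segments.

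Trac, the alpha-chain constant gene, had 73, 58, 79 and 91 counts in NTg and 106, 67, 81 and 50 in Tg. Means were 1.28 ± 0.292 (NTg) and 1.24 ± 0.326 (Tg) CPM (SD, n = 4; edgeR log2 fold change -0.05 with SE 0.23 and adjusted p = 0.992, 95% interval -0.56 to 0.47). Its highest library was NTg replicate 4 in CPM, and Tg replicate 1 was next to it (1.61 and 1.60 CPM). Near-identical copies of alpha variable genes make their sums unreliable: Trav3d-3 and Trav3n-3 carried the same count in each of the 8 libraries, 8, 5, 10 and 12 in NTg and 18, 5, 8 and 7 in Tg.

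Cd4, the co-receptor of helper T cells, had the most counts of the members and the narrowest interval of its fold change. It had 270, 441, 330 and 320 counts in NTg and 355, 216, 300 and 377 in Tg, or 5.74 ± 1.04 and 5.13 ± 1.20 CPM (SD, n = 4). The log2 fold change was -0.16 (SE 0.19, edgeR adjusted p = 0.939). NTg replicate 4 and Tg replicate 3, the libraries rich in Cd8a, were in the middle of their groups for Cd4, at 5.64 and 5.16 CPM. Lag3, which lies next to Cd4 on chromosome 6 and encodes an inhibitory receptor for MHC class II, averaged 7.53 ± 3.20 (NTg) and 20.6 ± 7.23 (Tg) CPM (log2 fold change 1.45, edgeR adjusted p = 0.169). DESeq2 called it (adjusted p = 0.0219), and Tg replicate 1, at 10.7 CPM, lay below NTg replicate 1, at 12.2 CPM.

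Nkg7, a membrane protein of the cytotoxic granules of CD8 T and NK cells, was highest in a library that the CD8 genes did not single out. It had 23, 8, 7 and 7 counts in NTg and 9, 6, 14 and 9 in Tg (log2 fold change -0.27, SE 0.46, edgeR adjusted p = 0.981, wider fit). NTg replicate 1 held 23 of the 45 NTg counts, and without it the log2 fold change was 0.32. Other cytotoxic and NK genes, not all of them for granule proteins, were divided among the libraries. Of the 15 cytotoxic and NK genes, 5 were highest of the 8 libraries in NTg replicate 1, 6 in Tg replicate 3 and 1 in NTg replicate 4. The granzyme Gzma had 24, 3, 9 and 4 counts in NTg and 10, 4, 12 and 4 in Tg. Gzmb had 23, 2, 6 and 1 in NTg and 8, 3, 9 and 4 in Tg, and the pore-forming Prf1 had 12, 3, 4 and 0 in NTg and 7, 4, 3 and 6 in Tg. These 3 were highest in NTg replicate 1, and in NTg replicate 4, richest in Cd8a, they stood at 4, 1 and 0 counts, where a count of 0 allows up to 0.0519 CPM (unscaled). Another granzyme gene, Gzmk, was instead highest in NTg replicate 4, with 35, 38, 50 and 64 counts in NTg and 49, 50, 48 and 32 in Tg. Ctsw, a protease gene of cytotoxic cells, was highest in Tg replicate 3, with 26, 19, 17 and 27 counts in NTg and 31, 31, 44 and 33 in Tg.

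Of the same list, 5 genes passed the count filter and 14 entered the wider fit, and edgeR and DESeq2 called 0 in both. At an unadjusted p under 0.05 there was 1 in each fit of edgeR, against 7.36% and 6.49% of all genes. The genes of highest CPM, which is not corrected for length, were those of the transcription factors Eomes (7.42 and 7.38 CPM in NTg and Tg) and Tbx21 (1.10 and 1.23 CPM), also expressed by projection neurons of the olfactory bulb. Both were highest in Tg replicate 3 (926 and 220 counts) and next in NTg replicate 2 (805 and 143 counts), the latter being the library with the fewest Cd8a counts.

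Cxcr3 had 4 to 10 counts in 7 libraries, close to the 3-count floor, and more in 1. Its counts were 10, 7, 4 and 5 in NTg and 4, 7, 19 and 9 in Tg, which is 0.109 ± 0.0409 and 0.164 ± 0.115 CPM (SD, n = 4). Tg replicate 3, also rich in CD8 transcripts, was highest, at 0.197 to 0.510 unscaled CPM (95% exact binomial interval). Its interval overlapped those of NTg replicates 1, 2 and 4 and of Tg replicates 2 and 4. That of NTg replicate 1 was 0.0794 to 0.304. The log2 fold change was 0.56 (SE 0.51, 95% interval -0.57 to 1.69, edgeR adjusted p = 0.946, wider fit). Without Tg replicate 3 it was -0.01. NTg replicate 4, with the most Cd8a, held only 5 Cxcr3 counts.

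Of the ligands of CXCR3, Cxcl10 alone was called. It rose from 40, 27, 26 and 22 counts in NTg to 199, 237, 247 and 335 in Tg (log2 fold change 3.11, SE 0.24, edgeR adjusted p = 0.00146, n = 4), with all Tg above all NTg libraries. Without Tg replicate 3 and NTg replicate 4 together, a fit with fewer libraries, its log2 fold change was 3.02 and it was not called (adjusted p = 0.065). Cxcl9 had 16, 5, 3 and 0 counts in NTg and 28, 1, 12 and 11 in Tg (log2 fold change 1.05, adjusted p = 0.902). Cxcl11 had 6, 24, 11 and 19 in NTg and 35, 9, 6 and 4 in Tg (log2 fold change -0.22, adjusted p = 0.985). Tg replicate 1 had the most Cxcl9 and Cxcl11 and the fewest Cxcl10 counts of the Tg libraries. Tg replicate 4, with the most Cxcl10, held 9 Cxcr3 and 4 Cd8a counts. Whether the change of Cxcl10 differs from that of Cxcr3 was not tested.

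**Figure D4:**
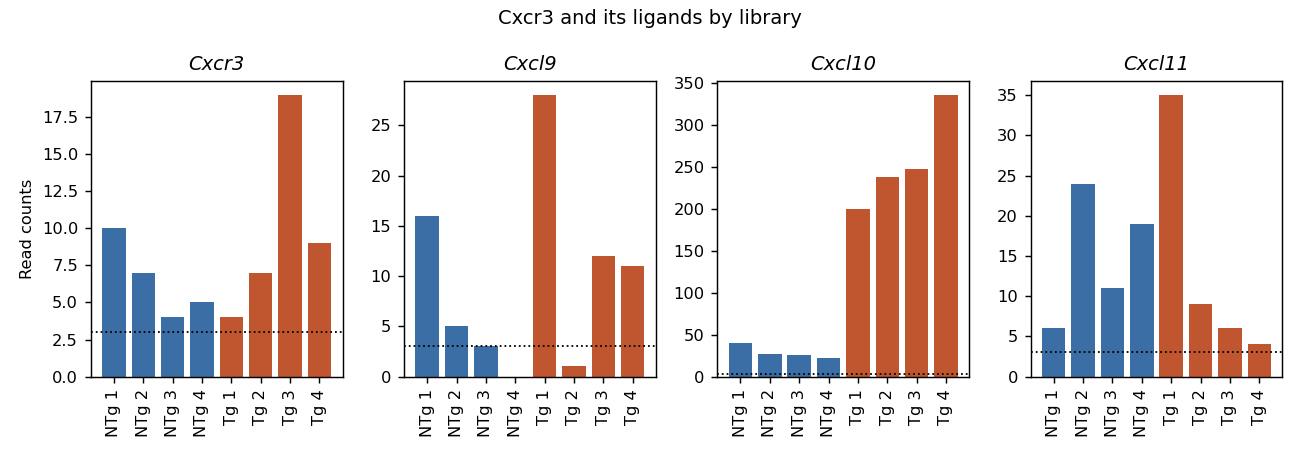
Read counts (vertical axes, linear from 0) of Cxcr3 and its ligands in each NTg (blue) and Tg (orange) library, with 3 counts dotted. Cxcl10 lies at 22 to 40 counts in NTg and 199 to 335 in Tg, while Cxcr3 stays between 4 and 19 counts in all 8 libraries.

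The wider list of CXCR3 ligands and lymphocyte homing genes had 16 of 17 members tested, with 1 called by edgeR (Cxcl10) and a median log2 fold change of 0.02, beside -0.0024 over all genes. DESeq2 called 2, Cxcl10 and Icam1, an adhesion molecule for leukocytes, where it called 1.55% of all genes passing the filter. Icam1 passed in the filtered genes (adjusted p = 0.0473) and not in the wider fit (adjusted p = 0.0503). Its genes of highest CPM were S1pr1, a receptor that guides lymphocyte exit (122 and 111 CPM in NTg and Tg), and the chemokine Cxcl12 (79.8 and 53.8 CPM). S1pr1 and Cxcl12 were not called, and both are expressed by resident brain cells.

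Genes of T cell receptor signalling and T cell identity were tested for 22 of 25 names, of which 23 had a row and 1, Ptprcap, was at 0 in all libraries. Their median log2 fold change was -0.09, and 6 of the 22 were positive, where 49.2% of all genes were. The edgeR test called 0 and 2 had an unadjusted p under 0.05, against 0.0139% and 7.36% of all genes passing the filter. Those 2 were the ones DESeq2 called, in opposite directions, and they did not overlap between genotypes. Of all genes passing the filter, DESeq2 called 1.55%, and 4.20% did not overlap. Lcp2, an adaptor shared by T cells and myeloid cells, averaged 2.74 ± 0.144 (NTg) and 4.53 ± 0.558 (Tg) CPM (log2 fold change 0.72, edgeR adjusted p = 0.107). Cd6, a T cell adhesion receptor, averaged 1.81 ± 0.168 (NTg) and 0.867 ± 0.307 (Tg) CPM (log2 fold change -1.06, edgeR adjusted p = 0.137). The counts of Cd6, at 120, 121, 94 and 94 in NTg and 47, 80, 47 and 37 in Tg, exceeded those of each CD3 gene in every library but did not follow them.

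Of the 22 genes of this list with a count, 8 were highest of the 8 libraries in NTg replicate 4, 5 in Tg replicate 3, 4 in NTg replicate 1 and the others elsewhere. Within NTg, replicate 4 was highest for 11 and lowest for 7 of them. Lck, the kinase that binds CD4 and CD8, had 75, 73, 62 and 164 counts in NTg and 104, 67, 121 and 83 in Tg. Cd247, the zeta chain, had 13, 6, 9 and 38 in NTg and 15, 19, 14 and 8 in Tg. Trat1, a receptor-associated adaptor, had 3, 5, 2 and 35 in NTg and 16, 16, 27 and 28 in Tg. All 3 were highest in NTg replicate 4, and Lck was highest in Tg replicate 3 among the Tg libraries. The kinase Zap70 was not: it had 156, 118, 153 and 105 counts in NTg and 156, 102, 103 and 86 in Tg. The adhesion receptor Cd2 was highest in NTg replicate 1, with 31, 6, 8 and 18 counts in NTg and 12, 8, 21 and 10 in Tg. The Tg libraries lay above NTg replicates 1 to 3 for Trat1, as for Cd3e, but the gene was not called (log2 fold change 0.90, SE 0.74, edgeR adjusted p = 0.902). The genes of highest CPM on the list, Thy1 (520 and 489 CPM in NTg and Tg) and Fyn (102 and 104 CPM), are strongly expressed by neurons.

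Of 12 checkpoint and regulatory T cell genes, 7 passed the count filter. Their median log2 fold change was -0.03, edgeR called 0, and DESeq2 called 3, all higher in Tg, namely Lag3, Pdcd1 and Havcr2. Over all genes passing the filter, edgeR called 0.0139%, and DESeq2 called 1.29% as higher in Tg. Pdcd1, which encodes PD-1, averaged 0.840 ± 0.125 (NTg) and 1.78 ± 0.530 (Tg) CPM (log2 fold change 1.08, edgeR adjusted p = 0.145). Havcr2, which encodes TIM-3 and is also a microglial gene, averaged 3.88 ± 0.638 (NTg) and 6.67 ± 1.12 (Tg) CPM (log2 fold change 0.78, edgeR adjusted p = 0.124). Both genes were higher in all 4 Tg libraries than in any NTg library, as were 2.62% of genes passing the filter. They were lowest, among the Tg libraries, in Tg replicate 1 (1.12 and 5.10 CPM), which also had the fewest microglial transcripts of the Tg libraries. Tox, which had the highest CPM over all libraries, was at 15.4 and 14.7 CPM in NTg and Tg. How much of these checkpoint transcripts came from T cells was not tested.

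Genes by which other cells address T cells were tested for 12 of 14 names, with a median log2 fold change of 0.25. The edgeR test called 0 and DESeq2 called 1, Cd86, against 0.0139% and 1.55% of all genes passing the filter. Cd86, a co-stimulator of myeloid cells, averaged 2.74 ± 0.262 (NTg) and 5.02 ± 1.15 (Tg) CPM (log2 fold change 0.87, edgeR adjusted p = 0.124). The MHC class I genes B2m (118 ± 41.9 and 182 ± 18.3 CPM in NTg and Tg) and H2-D1 (74.6 ± 32.8 and 99.9 ± 29.5 CPM) had the highest CPM of the list. B2m in NTg replicate 1, at 180 CPM, lay within the Tg range.

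Markers of other cell types showed what else differed between the libraries. The microglial sum lay at 273 to 348 CPM for NTg, while Tg replicate 1 had 366 CPM and Tg replicates 2 to 4 had 563 to 570 CPM. All 10 had a positive log2 fold change (median 0.64), with 0 called by edgeR and 7 by DESeq2, and Csf1r was among those of highest CPM. Pan-leukocyte genes, led by Laptm5 and Coro1a, summed to 128 to 164 CPM in NTg and 157 to 240 CPM in Tg, with 0 of 8 called by edgeR and 3 by DESeq2. Of all genes passing the filter, edgeR called 0.0139% and DESeq2 1.55%. Whether these lists differ from the T cell genes in their genotype difference was not tested.

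Most B cell markers set NTg replicate 1 apart: it was highest of the 8 libraries for 7 of 9 genes. Of the others, 1 was highest in Tg replicate 2 and 1 in NTg replicate 4. Ms4a1, which encodes CD20, had 214 counts in NTg replicate 1 and 1 to 19 in the other libraries. The list of 9 summed to 83.9 CPM in that library and 19.95 to 43.1 CPM in the other 7, led by Ighm and Igkc. This is also the library highest in Nkg7, Gzma, Gzmb and Prf1. The list's sum was lowest in NTg replicate 4, where 6 of the 9 genes were at their lowest of the 8 libraries and Ms4a1 had 1 count. Pax5, a B cell transcription factor gene, was highest there, at 165 counts, and had at least 63 in every library.

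Red blood cell transcripts summed to 3269 CPM for NTg replicate 4 and 3001 CPM for Tg replicate 1, against 448 to 1875 CPM elsewhere. Tg replicate 1 had 19 CD8 counts, beside 20 and 13 in Tg replicates 2 and 4. Tg replicate 3, with 103, had 731 CPM of red blood cell transcripts, against 489 and 448 CPM in Tg replicates 2 and 4. Neutrophil markers summed to 9.14 CPM in NTg replicate 4, the lowest library, and to 33.4 CPM in Tg replicate 3, the highest. That list was led by Csf3r, which DESeq2 alone called and which microglia also express, and S100a9. Border macrophage and monocyte genes, led by Itgax (the 1 gene of the list that DESeq2 called) and Ly6c2, summed to 29.6 to 34.1 CPM in NTg and 28.9 to 53.8 CPM in Tg. Itgax averaged 6.02 (NTg) and 18.8 (Tg) CPM, and Ly6c2 11.6 and 10.9 CPM. The median log2 fold change of the list was 0.01, with 6 of 10 genes positive. The part of blood or of attached membranes in the CD3 and CD8 counts was not tested.

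**Figure D5:**
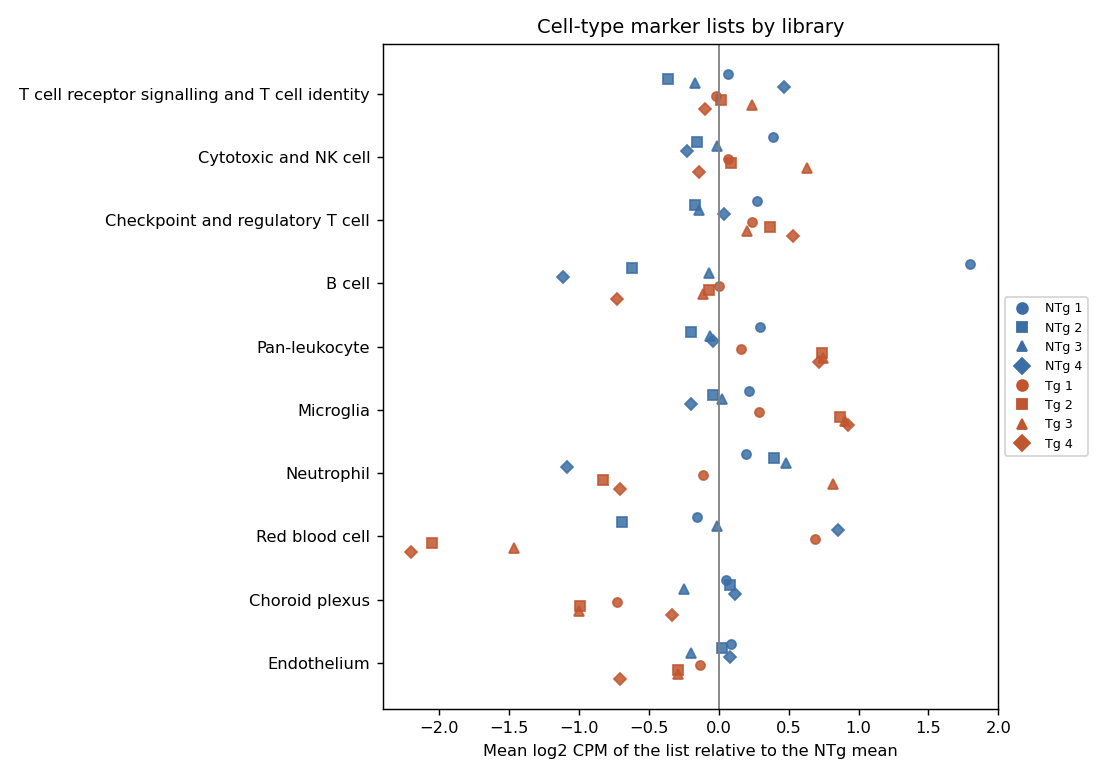
Mean log2 CPM of each marker list minus its NTg mean (horizontal axis), with NTg in blue, Tg in orange and 1 symbol per replicate number. The T cell list is highest in NTg replicate 4 (0.46) and Tg replicate 3 (0.24), the B cell list in NTg replicate 1 (1.80), and microglial markers in Tg replicates 2 to 4 (0.87 to 0.93).

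Choroid plexus markers, led by Ttr and Enpp2, summed to 1176 to 1588 CPM in NTg and 718 to 1112 CPM in Tg, with 0 of 7 called by edgeR and 5 lower by DESeq2. Endothelial markers, led by Flt1 and Slco1a4, summed to 203 to 243 CPM in NTg and 149 to 211 CPM in Tg, with 0 of 7 called by edgeR and 1 lower by DESeq2. Of all genes passing the filter, edgeR called 0.00463% and DESeq2 0.259% as lower in Tg. NTg replicate 4 and Tg replicate 3, the libraries rich in Cd8a, stood at 1532 and 772 CPM for choroid plexus and at 243 and 186 CPM for endothelium. Neuronal markers, with Snap25 and Syt1 the most abundant, summed to 5204 to 6108 CPM over the 8 libraries.

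The genes whose log2 CPM followed each filtered member most closely were sought among 15560 named genes over the 8 libraries. For Cd8a they were Eapp (r = 0.985), Lat (0.952) and Ccdc186 (0.952), of which Lat is a T cell receptor adaptor with 36, 22, 28 and 61 counts in NTg and 37, 38, 47 and 28 in Tg. For Cd3g they were Olfm3 (0.979), Kat2b (0.976) and Mtch2 (0.963), and for Cd3e Pla1a (0.967), Glipr1 (0.964) and Znrf2 (0.959). Cd4 was closest to Cisd1 (0.987), Pfdn2 (0.968) and Macrod1 (0.960), Trac to Wdr44 (0.961), Ccdc66 (0.956) and Mapk6 (0.954), and Trbc2 to Osbpl1a (0.962), Btbd10 (0.945) and Rtkn2 (0.944). These are Pearson correlations, the best of many over 8 points that share library depth and tissue makeup, and serve as a description alone.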

How the data were processed

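Polyadenylated RNA of 8 forebrain libraries was sequenced as paired 75-base reads with an unstranded TruSeq kit, per the labels' protocols. The authors deposited raw counts per Ensembl gene with no normalization. STAR, DESeq2 and the build GRCm39 are named in the submitters' processing notes, and the sources used here do not give the counter, the annotation or any version. A name table matched 52073 identifiers, holding 99.58% of the counts, and 0 columns belonged to other series. Library totals of 57129090 to 65242741 set the precision, and binomial intervals (exact, 95%) and 3-count floors cover counting error only.

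Tg was compared with NTg by edgeR 4.0.16 (R 4.3.3), with TMM factors and the quasi-likelihood F test, on 21588 genes kept by filterByExpr (minimum count 10, minimum total 15). A wider fit took the 28919 genes with at least 10 counts in total, for members under that filter. P-values were adjusted by Benjamini-Hochberg over all genes of a fit (threshold 0.05). Standard errors of log2 fold changes were derived as their absolute value over the root of the F statistic. The code was tested on simulated data. No pair of libraries in a genotype agreed within sampling noise (chi-square per degree of freedom of at least 10.9).

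Members and gene lists were chosen with earlier results of these data known. Named by rule are all members, App, called genes, the 2 of highest mean CPM in each list, and the 3 genes most correlated (log2 CPM, prior count 2) with each filtered member. Genes of the lists that are withheld are not reported here by name. Other genes named with values were chosen after those were seen. Alternatives were DESeq2 1.42.0 without independent filtering, limma-voom 3.58.1, RLE or no scaling factors, robust dispersion, a replicate block, other filters (a minimum count or total of 20, or none), an FDR of 0.01 and each library left out. Leaving out Tg replicate 3 and NTg replicate 4 together was added after seeing the data. Gene lengths, the order of genes and the Trbc sequences come from GENCODE M21, and promoters from RefSeq, both on GRCm38, an older build than the counts.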

Additional observations from a re-analysis of the deposited data

Results flagged for a closer look

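Values below stood apart from the other 3 libraries of their genotype, by Dixon's criterion at its 95% critical value. Chance flags about 1 in 20 groups fixed in advance, and 22 of 166 were flagged here. Many of these are sums that share genes, and some genes and sums were chosen after their values were seen. The share flagged therefore cannot be set against chance.

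NTg replicate 4 was high in Cd3e (0.353 CPM against 0.124 to 0.132), Cd8a (1.78 against 0.0318 to 0.281), Cd8b1 (1.48 against 0.0159 to 0.215), Lck (2.89 against 1.10 to 1.24) and Trat1 (0.617 against 0.0355 to 0.0794). The same library was high in the summed CD3 genes (1.73 CPM), the summed CD8 genes (3.26 CPM), the CD3 and CD8 genes together (4.99 CPM) and the Trbv segments (77 counts against 3 to 12). Tg replicate 3 was high in Cd8a (1.07 CPM against 0.0685 to 0.214), Cd8b1 (0.705 against 0.115 to 0.154), the summed CD8 genes (1.77 CPM) and the CD3 and CD8 genes together (2.72 CPM).

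NTg replicate 1 was high in Nkg7 (0.380 CPM against 0.123 to 0.127), B2m (180 against 91.5 to 107), Ms4a1 (3.53 against 0.0176 to 0.231), Igkc (14.2 against 2.19 to 3.03) and the summed B cell list (83.9 against 19.95 to 30.6). Tg replicate 1 was low in the microglial sum (366 CPM against 563 to 570). It was high in Hbb-bs (1140 CPM against 165 to 280), Hba-a1 (995 against 150 to 246) and the red blood cell sum (3001 against 448 to 731).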

How the results depend on the processing

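The count of called members was 0 under all alternatives run for both fits. Over all genes, the count of 3 in each fit became 334 (main filter) and 321 (wider fit) with DESeq2, and 127 with no filter. In the wider fit it was 7 with no scaling factors, 7 with robust dispersion, and 5 without Tg replicate 3 and NTg replicate 4 together. With single libraries left out it ranged from 3 to 314 in the main fit and from 3 to 300 in the wider fit, the highest without Tg replicate 1. With the replicate block it was 1 in the main and 5 in the wider fit, and Cxcl10 was not called in the main fit (log2 fold change 3.09, edgeR adjusted p = 0.0775). Same-numbered libraries showed little shared deviation (correlations from -0.03 to 0.16, 1 of 4 over 0.1, and 1 number best matched with itself). Weak correlations over all genes cannot tell whether such libraries were matched by litter or handling.

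Of 163 member values under an alternative, 144 kept their direction, 19 changed sign and none became called. The difference of the summed members, -1.26 CPM (Tg minus NTg), stayed within 1 SD and ranged from -2.33 to 0.23 with single libraries left out. Log2 fold changes with single libraries left out ranged from -1.06 to 0.30 for Cd3d, -0.69 to 1.36 for Cd3g, -2.0 to 0.95 for Cd8a, -1.70 to 1.44 for Cd8b1, -0.014 to 0.84 for Cxcr3, -0.55 to 0.32 for Nkg7, -0.20 to 0.091 for Trac and -0.24 to 0.13 for Trbc2. Cd3e (0.51 to 1.21) and Cd4 (-0.29 to -0.02) kept their sign. Without Tg replicate 3 and NTg replicate 4 together the sign turned for Cxcr3 (-0.10), Cd3g (1.12), Cd8b1 (0.42) and Trac (0.014). With limma-voom it turned for Cd3g (0.79) and Cd8b1 (0.45), and with the replicate block for Cd3g (0.28). The cause was not tested. Members other than Cd4, Trbc2 and Trac had few counts in most libraries, which widens their binomial intervals. Those intervals cover counting error only. For Cd8a, those of NTg replicate 4 and Tg replicate 3 lay clear of the other libraries, but both libraries were picked out after their counts were seen.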
